A study of Mus musculus with 6 samples.

Results

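The transcripts of the mitochondrial genome were followed in cultured mouse lung endothelial cells given hydrogen peroxide (H2O2). All gene symbols beginning with mt- were taken, which gave 37 of the 33006 genes in the count tables. They are 13 mRNA genes, 2 ribosomal RNA (rRNA) genes and 22 transfer RNA (tRNA) genes, and they were picked by symbol alone, whatever their counts. Of the 37, 12 passed the filter on low counts and were tested (9 mRNAs, 2 rRNAs and 1 tRNA). The other 25 are described by their counts only.

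Primary pulmonary endothelial cells of C57BL/6 mice were grown in EBM-2 medium with the EGM-2 MV supplements. At 80% confluence they received water (control) or 300 uM H2O2, an oxidant that crosses membranes and that peroxidases and catalase remove. After 6 h, 3 mRNA libraries per group were made, with 100 ng of total RNA going into each. Both groups shared strain, medium, confluence and time, and differed in the labels by the H2O2 alone. The labels do not say that the libraries of a group came from separate cultures or animals, so the p-values describe the spread among these 6 libraries and no more, and that spread can be technical.

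The libraries held 22455388 to 27618679 gene counts. The endothelial markers had summed levels of 3844 to 3973 normalised counts (CPM, scaled to a common library size) in controls and 4088 to 4121 with H2O2, with Cdh5, the endothelial cadherin, at 1102 to 1209. Lyve1, a receptor typical of lymphatic endothelium, stood at 1830 to 1907 CPM. In every library, 1 of the 9 endothelial markers and 1 of the 4 lymphatic ones stayed under 1 CPM. The epithelial list summed to at most 0.193 CPM with 4 of 7 markers at 0 in every library. The fibroblast list reached 27.9 CPM, the smooth muscle and pericyte list 5.38 and the leukocyte list 172, of which the scavenger receptor gene Cd68 made up nearly all. The mesothelial list reached 0.558 CPM and the erythroid list 0.0385. None of the tested genes of these 6 lists was called. Few were tested: 2 fibroblast, 3 smooth muscle and pericyte, 3 leukocyte, 1 mesothelial, 0 epithelial and 0 erythroid. Of the endothelial markers 3 of 8 tested were called higher with H2O2, and of the lymphatic ones 2 of 3. Among all tested genes 9.70% were called higher and 20.5% in either direction. H2O2 replicate 3 stood apart in Gm26924, a feature of nuclear-encoded ribosomal RNA, which took 3616 CPM there and 9834 to 11527 in the other 5 libraries. Of the smaller features grouped with it, mmu-mir-6236 (annotated as a microRNA) had 129 to 143 CPM in controls and 52.0 to 110 with H2O2, and Gm26917 had 194 to 216 and 149 to 179. In both, every H2O2 library lay below every control.

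The mitochondrial genome is a small circle present in many copies per cell, transcribed from both strands as long precursors. The tRNAs lie between the other genes and are cut out of these precursors, which releases the rRNAs and mRNAs. All of its mRNAs encode subunits of the respiratory chain and the ATP synthase, built together with many subunits made from nuclear genes, and its rRNAs form the ribosome that translates them. Most genes are read from the heavy-strand promoter, among the mRNAs all but mt-Nd6.

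Mitochondrial sequences have also been copied into the nuclear chromosomes, and reads that align equally well to both places are commonly set aside in counting. The following pairs are shown because mRNAs copied nearly whole and nearly without differences had few counts or none, as mt-Co2 and mt-Nd3 did. mt-Cytb and mt-Nd1, whose nearest annotated copies differ more, had many. So did mt-Co1, although its best copy, Gm13340, spans 100% of it at 97.6% identity. Whether the copies bear on the counts was not tested. Each pair is a 60-base stretch of the mitochondrial gene and of its copy, in GENCODE M21 transcripts (assembly GRCm38, the same as mm10). Capitals mark the bases that differ within the pair. For mt-Co2 and mt-Nd3 the stretch with the most differences was taken. For mt-Cytb and mt-Nd1 it was the middle of the alignment. The stretch of mt-Co2 (chrM:7013-7072, plus strand) had 0 differences from Gm28661, that of mt-Nd3 (chrM:9459-9518) had 1 from Gm28438, that of mt-Cytb (chrM:14717-14776) had 4 from Gm11410 and that of mt-Nd1 (chrM:3453-3512) had 15 from Gm11834.
mt-Co2: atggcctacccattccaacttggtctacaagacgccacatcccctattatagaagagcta
Gm28661: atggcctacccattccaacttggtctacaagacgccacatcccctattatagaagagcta
mt-Nd3: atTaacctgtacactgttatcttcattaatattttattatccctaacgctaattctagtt
Gm28438: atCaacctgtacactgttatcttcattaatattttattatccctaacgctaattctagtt
mt-Cytb: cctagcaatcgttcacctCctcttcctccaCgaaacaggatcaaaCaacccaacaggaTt
Gm11410: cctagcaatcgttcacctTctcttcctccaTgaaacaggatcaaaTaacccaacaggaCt
mt-Nd1: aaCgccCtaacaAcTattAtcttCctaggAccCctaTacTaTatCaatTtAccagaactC
Gm11834: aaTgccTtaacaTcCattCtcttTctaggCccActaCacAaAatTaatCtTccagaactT

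Of the 13 mRNAs, 7 had 2673 counts or more in every library and 6 had at most 21 in any. The 6 were mt-Co2 (8 to 14 counts per library) and mt-Co3 (4 to 21), core subunits of cytochrome c oxidase; mt-Atp6 (3 to 11) and mt-Atp8 (0 to 1), subunits of the membrane part of ATP synthase; and mt-Nd3 (0 to 3) and mt-Nd4l (0 to 2), membrane subunits of complex I. All windows of 50 bases were compared with every other annotated transcript on either strand. For 5 of these 6 genes nearly every window recurred elsewhere: 100% in mt-Co2, 99.9% in mt-Co3, 99.5% in mt-Atp6, 98.8% in mt-Nd4l and 98.0% in mt-Nd3. Their copies Gm28661, Gm28437, Gm10925, Gm10222 and Gm28438 are annotated unprocessed pseudogenes that lie in 1 run on the minus strand of chromosome 1 (mm10). With Gm28439 (a copy of part of mt-Nd4) and Gm29216 (of part of mt-Co1), the run spans chr1:24611535-24616197.

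The exception was mt-Atp8, which had at most 1 count per library although 0% of its windows recurred in another annotated transcript. It lies at chrM:7766-7969 and overlaps mt-Atp6 by 43 bases. On chromosome 1, no transcript is annotated between the copies of mt-Atp6 (ending at 24614651) and of mt-Co2 (starting at 24614885), and the genome sequence of that stretch was not used here. Among the well counted mRNAs, the shared windows were 0% in mt-Nd1, mt-Nd6 and mt-Cytb, 7.61% in mt-Nd5 and 8.19% in mt-Nd2. They were 51.1% in mt-Co1 and 62.2% in mt-Nd4, so the counts of these last genes can come from a part of their length. The read length is not given, and with windows of 100 bases the shares were 30.8% in mt-Co1, 60.8% in mt-Nd4, 3.19% in mt-Nd2 and 0% in mt-Nd5, and still 97.6% or more in the 5 genes with nearly whole copies. Reads with more than 1 alignment made up 11.6% ± 0.124 of the reads counted in a control library and 11.1% ± 0.0502 in an H2O2 library (mean ± SD, n = 3). The class of unaligned reads stood at 0 in every library, so these are shares of aligned reads. How the reads with more than 1 alignment divide among genes was not tested.

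**Figure D1:**
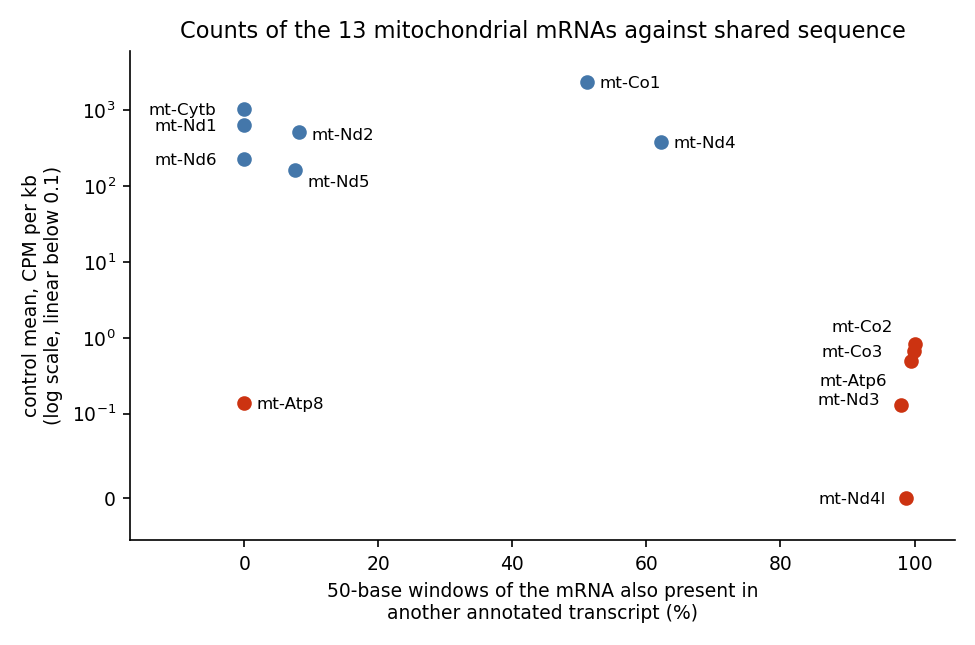
Mean control level (CPM per kb of gene, log scale that is linear below 0.1) of each of the 13 mitochondrial mRNAs against the percentage of its 50-base windows found in another annotated transcript. Blue points are the 7 mRNAs with over 21 counts and red points the 6 with at most 21 counts in any library, of which 5 lie at 98.0% or more and mt-Atp8 lies at 0%.

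Levels of the rRNAs and of the 7 well counted mRNAs were compared per kilobase of gene in the 3 controls. The libraries were made for mRNA, so the level of an rRNA beside an mRNA here is no measure of their proportion in the cells. mt-Co1, the catalytic subunit of cytochrome c oxidase, was the highest at 2350 CPM per kb, followed by mt-Cytb, the cytochrome b of complex III, at 1034. Then came mt-Rnr2 (682), mt-Nd1 (632), mt-Nd2 (512), mt-Rnr1 (487), mt-Nd4 (376), mt-Nd6 (227) and mt-Nd5 (161). Counted per kilobase of unshared windows, mt-Nd4 stood at 1032 ± 58.2 beside mt-Cytb at 1080 ± 55.3, a difference within 1 SD, and mt-Co1 at 4966 ± 444 (SD, n = 3). With windows of 100 bases these levels were 1032 ± 58.2, 1132 ± 58.0 and 3630 ± 325. The rank of mt-Nd4 thus depended on the length used, whereas of these 9 genes mt-Co1 was the highest and mt-Nd5 the lowest on all these scales.

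The question of the design is how these transcripts differed after H2O2. Of the 12 tested, 8 fell and 0 rose, where 10.8% of the 12924 tested genes were called lower and 9.70% higher. The 8 were both rRNAs and 6 mRNAs. The 9 members with over 21 counts other than tRNA had log2 fold changes (H2O2 over control) from -0.65 in mt-Rnr1 to -0.09 in mt-Nd1. The 7 well counted mRNAs had a median of -0.26 and the 2 rRNAs of -0.57, where all tested genes had -0.00. All H2O2 libraries lay below all controls in 6 of the 12, which include mt-Co2 with its few counts, where 18.2% of tested genes did so and 34.6% had groups that did not overlap in either direction. Calls and every adjusted p below come from edgeR's quasi-likelihood fit, with adjustment over all tested genes by the Benjamini-Hochberg method and a threshold of 0.05. In such bulk RNA, fewer cells of a type and less RNA per cell cannot be told apart.

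The rRNAs had the largest changes among the 8 called members. In an mRNA library their counts also depend on how much rRNA was taken in, and whether that differed between groups was not tested. mt-Rnr1 (chrM:70-1024), the RNA of the small subunit of the mitochondrial ribosome, stood at 420, 491 and 483 CPM in control replicates 1 to 3 and at 305, 316 and 268 with H2O2. The lowest control was well above the highest H2O2 library. It fell by 0.65 on the log2 scale (SE 0.0482, adjusted p = 1.5e-10), that is by 36.2%. Only 0.634% of the tested genes had a lower log2 fold change.

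mt-Rnr2 (chrM:1094-2675), the RNA of the large subunit, had 922, 1179 and 1133 CPM in controls and 784, 770 and 754 with H2O2. The groups did not overlap, and the 3 H2O2 libraries were close together while control replicate 1 was the low control. The fall was 0.49 on the log2 scale (SE 0.0504, adjusted p = 5.5e-08), or 28.7%. Of the 3 detected features of nuclear-encoded ribosomal RNA, 2 were called lower too. mmu-mir-6236 had a log2 fold change of -0.76 (adjusted p = 4.8e-05) and Gm26917 of -0.31 (adjusted p = 2.8e-05). Gm26924, by far the most counted, stood at -0.41 and was not called (adjusted p = 0.14). Without H2O2 replicate 3 these values were -0.53, -0.23 and -0.06, while mt-Rnr1 stood at -0.58 (adjusted p = 2.3e-15) and mt-Rnr2 at -0.47 (adjusted p = 1.6e-10). Whether these changes bear on those of the mitochondrial rRNAs was not tested. mt-Rnr1 shared no window and mt-Rnr2 1.04% of its windows with another annotated transcript.

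**Figure D2:**
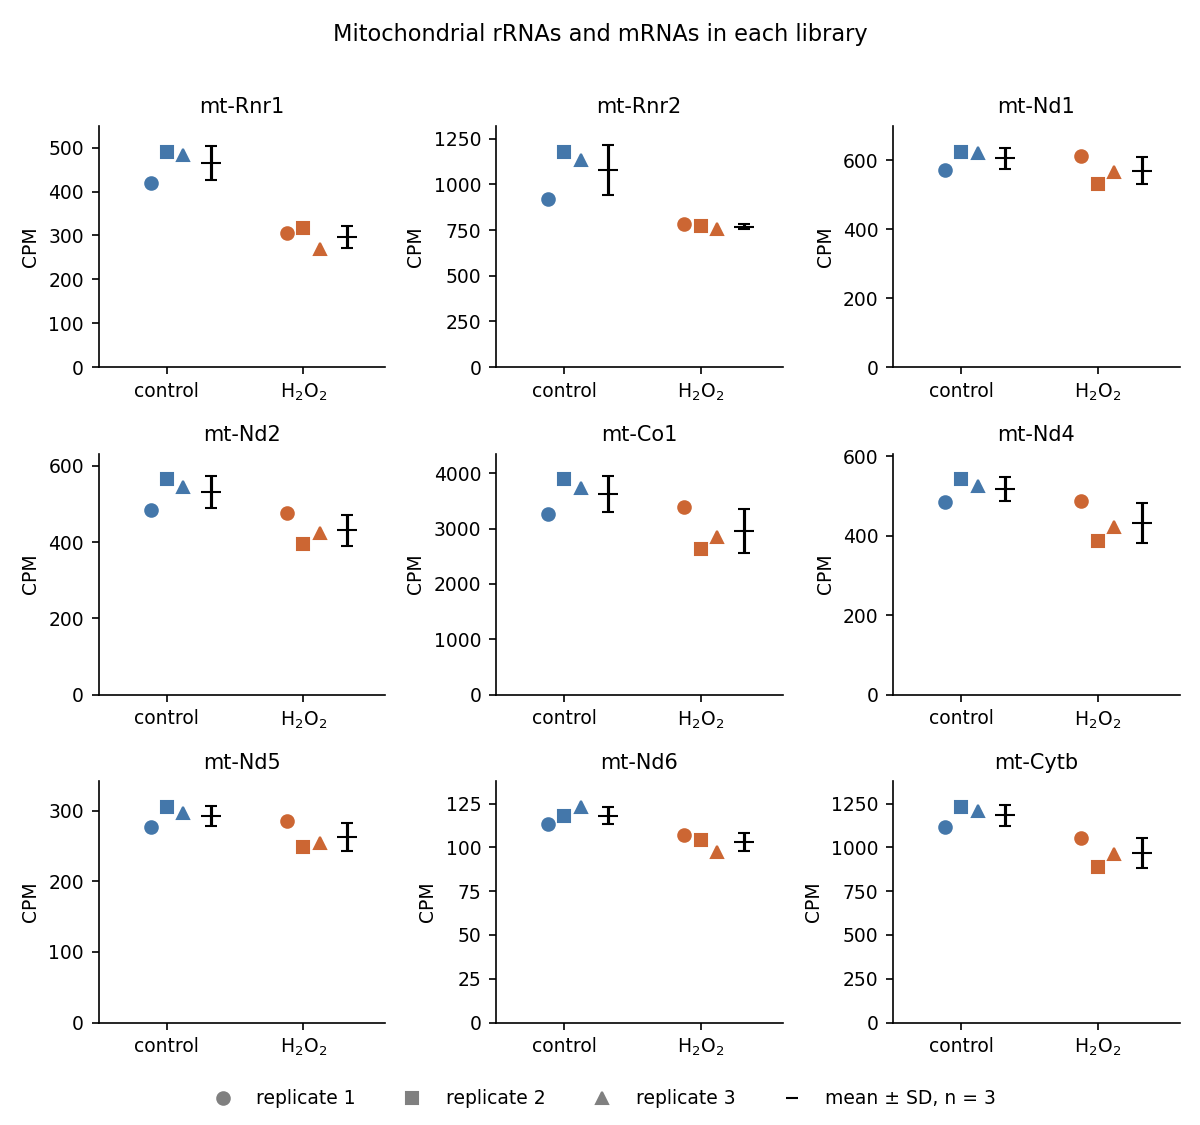
CPM of both mitochondrial rRNAs and of the 7 mRNAs with over 21 counts in each library (blue, control; orange, H2O2; symbols give the replicate number), each axis starting at 0, with the mean ± SD of 3 libraries beside each group. In both rRNAs, mt-Nd2, mt-Nd6 and mt-Cytb the groups do not overlap, and in all 7 mRNAs H2O2 replicate 1 is the highest of the H2O2 libraries.

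Complex I, which takes electrons from NADH, has 7 mitochondrially encoded subunits. The 5 with over 21 counts encode its membrane arm, and 4 of them fell. mt-Nd2 (chrM:3914-4951) had 485, 565 and 545 CPM in controls and 476, 395 and 424 with H2O2. The groups did not overlap, although H2O2 replicate 1 came close to control replicate 1. Its log2 fold change was -0.30 (SE 0.0483, adjusted p = 4.5e-05). mt-Nd4 (chrM:10167-11544) stood at 486, 542 and 526 CPM and then at 487, 388 and 422. Here H2O2 replicate 1 lay just above the lowest control, so the groups overlapped, and the log2 fold change was -0.26 (SE 0.0498, adjusted p = 3.6e-04).

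mt-Nd5 (chrM:11742-13565), which lies at the far end of the membrane arm, had 277, 305 and 297 CPM in controls and 285, 249 and 254 with H2O2. H2O2 replicate 1 again fell among the controls. The log2 fold change was -0.16 (SE 0.0403, adjusted p = 5.4e-03), and leaving out control replicate 2 or H2O2 replicate 2 ended this call (adjusted p = 0.060 and 0.053). mt-Nd1 (chrM:2751-3707), which sits where the membrane arm meets the peripheral arm, is the mRNA nearest to the rRNAs. It had 570, 624 and 620 CPM in controls and 611, 532 and 566 with H2O2. The groups overlapped and it was not called, with a log2 fold change of -0.09 (SE 0.0384, adjusted p = 0.11). It was called lower when control replicate 1 (adjusted p = 0.021) or H2O2 replicate 1 (adjusted p = 0.011) was left out, and when length and GC content were corrected for (-0.19).

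mt-Nd6 (chrM:13552-14070, minus strand) is the mRNA read from the light-strand promoter. It stood at 113, 118 and 123 CPM in controls and at 107, 104 and 97.6 with H2O2, without overlap. Its log2 fold change was -0.19 (SE 0.0392, adjusted p = 6.3e-04). It overlaps mt-Nd5 on the opposite strand by 14 bases. Both strands are transcribed as long precursors, and no strand setting of the counting is given. Reads of mt-Nd6 and of the opposite strand therefore cannot be told apart along the whole gene.

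mt-Cytb (chrM:14145-15288), which encodes the cytochrome b of the complex that passes electrons to cytochrome c, had 1115, 1230 and 1205 CPM in controls. With H2O2 it had 1054, 885 and 963, all below every control. The log2 fold change was -0.29 (SE 0.0421, adjusted p = 1.1e-05). mt-Co1 (chrM:5328-6872) was the most counted member, with 3265, 3888 and 3738 CPM in controls and 3394, 2622 and 2844 with H2O2. H2O2 replicate 1 lay above control replicate 1, so the groups overlapped. mt-Co1 fell by 0.30 on the log2 scale (SE 0.0587, adjusted p = 5.0e-04).

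The libraries kept a common order across the mRNAs. In 7 of the 7 well counted mRNAs, H2O2 replicate 1 was the highest of the H2O2 libraries and control replicate 1 the lowest control. H2O2 replicates 2 and 3 lay below every control in all 7, and H2O2 replicate 2 was the lowest in 6 of them. These mRNAs come from shared precursors and the same libraries, so their calls are not independent of each other. By DESeq2's test 3 of the mRNAs were called lower (mt-Nd2, mt-Nd6 and mt-Cytb), and mt-Co1, mt-Nd4 and mt-Nd5 were not (adjusted p = 0.12, 0.079 and 0.14). Both rRNAs were called by that test too.

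**Figure D3:**
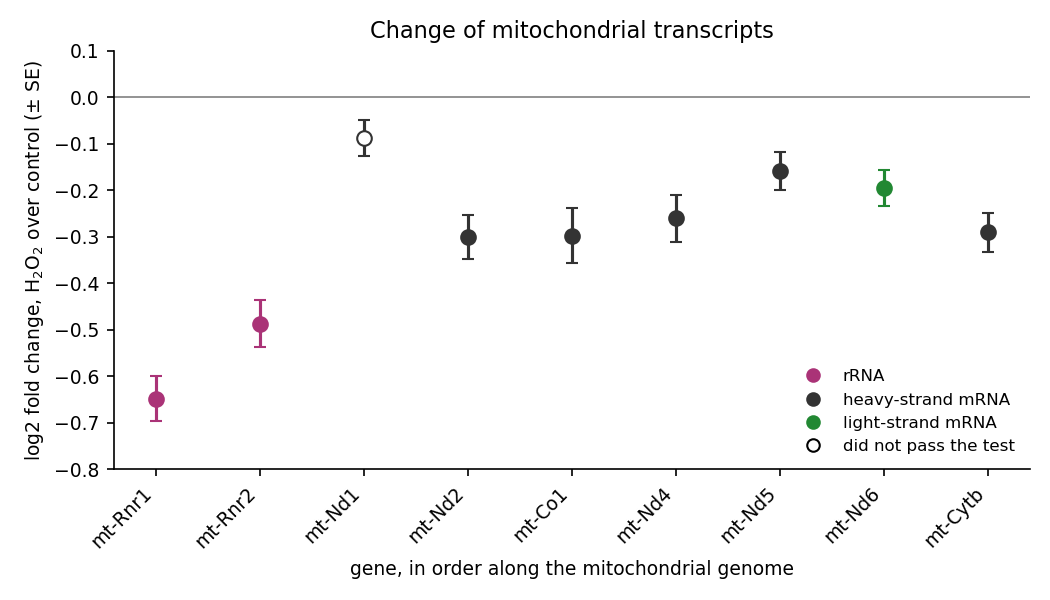
Log2 fold change (H2O2 over control, ± SE from edgeR's fit to 3 libraries per group) of the rRNAs and of the mRNAs with over 21 counts, in their order along the mitochondrial genome. The rRNAs lie lowest at -0.65 and -0.49, and mt-Nd1, next to them, lies nearest to 0 at -0.09 and is drawn open because it did not pass.

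Both remaining tested mRNAs rested on few counts. mt-Co2 had 14, 13 and 14 counts in controls and 13, 10 and 8 with H2O2 (log2 fold change -0.55, SE 0.377, adjusted p = 0.34). mt-Co3 had 13, 11 and 14 counts and then 21, 4 and 5 (-0.49, SE 0.480, adjusted p = 0.53). Neither was called, and SEs of this size leave changes like those of the other mRNAs undetectable at this depth. The other low mRNAs were under the filter. mt-Nd4l had 0 counts in every control and 2 in every H2O2 library, mt-Nd3 had 0, 0 and 3 and then 0, 0 and 1, mt-Atp8 had 1, 0 and 1 and then 0, 1 and 1, and mt-Atp6 had 11, 9 and 5 and then 7, 4 and 3. All those of mt-Nd4l, mt-Nd3 and mt-Atp8 are at or under 3 counts, so no fold is given. For scale, 3 counts, the limit that a count of 0 allows, correspond to 0.109 to 0.134 CPM.

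Of the 22 tRNAs, 16 had 0 counts in every library and 5 had 1 to 2 counts at most (mt-Ta, mt-Tc, mt-Tl1, mt-Tm and mt-Tv, with 10 counts in all). The tRNA genes are 59 to 75 bases long, and 0% of their 50-base windows recurred in another annotated transcript. The exception was mt-Tp, the tRNA for proline, at the end of the gene run on the light-strand side (chrM:15356-15422, minus strand). Its sequence from GENCODE M21 is shown as that of the tRNA with counts, with the anticodon in capitals (bases 31 to 33 from the 5′ end).
mt-Tp: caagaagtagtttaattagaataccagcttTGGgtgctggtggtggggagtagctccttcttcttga
mt-Tp had 96, 135 and 88 counts in controls and 108, 118 and 44 with H2O2, or 3.83, 5.30 and 3.94 CPM and then 4.16, 4.28 and 1.61. The low value was that of H2O2 replicate 3 and the groups overlapped. It was not called (log2 fold change -0.39, SE 0.211, adjusted p = 0.21), and without H2O2 replicate 3 the value was -0.05 (adjusted p = 0.87). An mRNA library of this kind is not made to capture short RNAs, so these counts do not measure tRNA levels. Without a strand setting, reads of mt-Tp and of the opposite strand cannot be told apart either.

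Summed by class, the mRNAs took 0.634%, 0.722% and 0.701% of gene counts in controls and 0.640%, 0.517% and 0.562% with H2O2. The means were 0.686% ± 0.0461 and 0.573% ± 0.0620 (SD, n = 3 each), and H2O2 replicate 1 overlapped the controls (exact two-sided permutation p = 0.2). The rRNAs took 0.135%, 0.166% and 0.161% and then 0.109%, 0.108% and 0.103%, without overlap (exact two-sided permutation p = 0.1, the smallest that 3 against 3 can give). The tRNA total was that of mt-Tp in the main and did not separate the groups (exact two-sided permutation p = 0.6).

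Ratios within a library do not depend on how the libraries were scaled to each other. Those of rRNA to mRNA do depend on how much rRNA an mRNA library takes in. Whether that differed between the groups was not tested. The rRNAs were 17.5%, 18.7% and 18.6% of all mitochondrial counts in controls and 14.5%, 17.3% and 15.5% with H2O2, so that every H2O2 library was below every control. The log2 ratio of rRNA to mRNA differed by -0.26 (exact two-sided permutation p = 0.1). The log2 ratio of mt-Rnr1 to mt-Rnr2 differed by -0.17, also without overlap (exact two-sided permutation p = 0.1). Among the mRNAs, the ratio of mt-Nd1 to the others was higher in every H2O2 library than in any control. Its log2 ratio to the other mRNAs was -3.33, -3.41 and -3.38 in controls and -3.25, -3.13 and -3.15 with H2O2, a difference of 0.20 (exact two-sided permutation p = 0.1).

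The log2 ratio of mt-Nd5 to the other mRNAs was higher by 0.11 and that of mt-Nd2 differed by -0.03, both without overlap. The ratios of mt-Co1 (-0.07), mt-Nd4 (0.00), mt-Cytb (-0.03) and mt-Nd6 (0.08) overlapped between the groups. mt-Co1 made up 52.7% ± 0.893 of mRNA counts in controls and 51.5% ± 1.20 with H2O2. In all, 12 totals and ratios were tested and 6 did not overlap. With Benjamini-Hochberg adjustment over the 12, the exact permutation p of 0.1 became 0.2, so none passed.

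**Figure D4:**
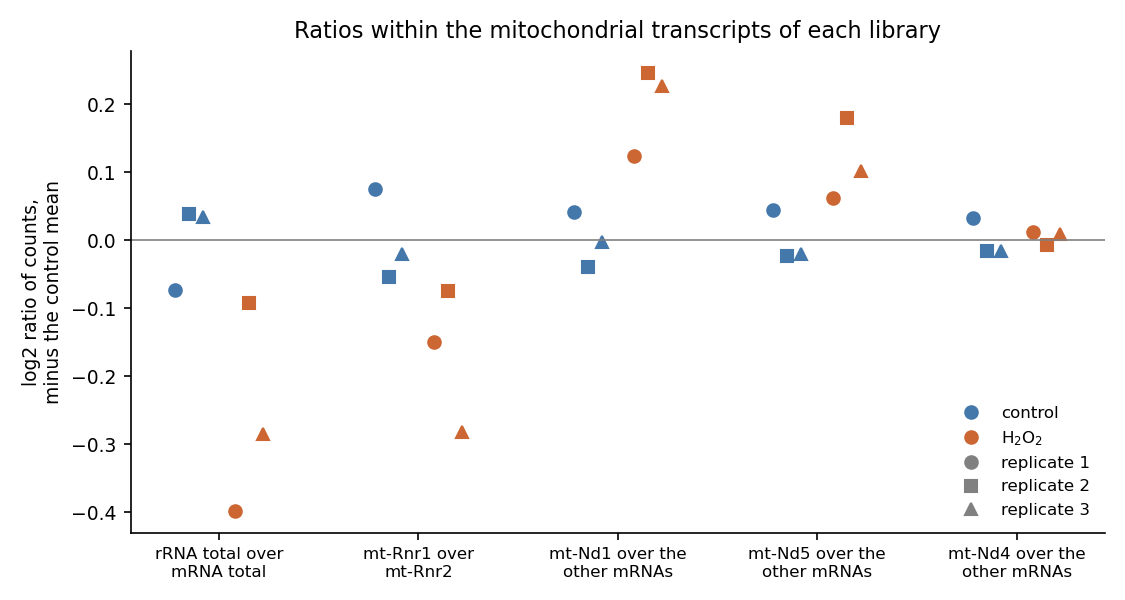
Log2 ratio of counts within each library, with the mean of the 3 controls set to 0 (blue, control; orange, H2O2; symbols give the replicate number). The ratios of rRNA to mRNA and of mt-Rnr1 to mt-Rnr2 are below the controls in every H2O2 library, those of mt-Nd1 and mt-Nd5 to the other mRNAs are above them, and that of mt-Nd4 overlaps.

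The nuclear partners of these mRNAs were not lower as a group. Nuclear genes for subunits of complexes I, III, IV and V were listed. Counted among them were Atpif1, an inhibitor of ATP synthase (not called), and Cox7a2l, a supercomplex assembly factor (called higher). Of these 75 tested genes, 46 rose and 2 fell, with a median log2 fold change of 0.19, where 9.70% of tested genes were called higher. A correction for the length and GC content of the transcripts changed this split to 37 higher and 10 lower (median 0.12). It gave 13 higher and 4 lower in complex I and 6 and 2 in complex III. In complex IV it gave 9 and 0, and in complex V 9 and 4. Under the same correction 7 of the 7 well counted mitochondrial mRNAs were called lower (median -0.36). The direction of the nuclear calls as a group therefore stood under both, with fewer higher calls and more lower ones under the correction. The counts and genes by complex that follow are those without the correction.

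In complex I, 18 of 36 nuclear genes rose and 1 fell. Ndufa7, an accessory subunit, rose by 0.42 (SE 0.0449, adjusted p = 1.1e-07), Ndufs8, which holds iron-sulphur clusters, by 0.36 and the accessory subunit Ndufb9 by 0.26 on the log2 scale. The gene that fell was Ndufs1, the largest iron-sulphur subunit, at -0.21 (named after its value was seen). In complex III, 6 of 9 rose and 0 fell, among them the small subunit genes Uqcrq (0.46), Uqcr10 (0.46) and Uqcrh (0.37), while the mitochondrial partner mt-Cytb fell.

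In complex IV, 10 of 12 rose and 0 fell, with Cox6a1, Cox6b1 and Cox7b each at 0.30. Its core subunit mt-Co1 fell, and mt-Co2 and mt-Co3 had too few counts to compare. In ATP synthase, 12 of 18 rose, and those with the smallest p were Atp5e (0.57), Atp5o (0.33) and Atp5c1 (0.28), which encode subunits of the stalks. The gene that fell was Atp5b, the catalytic beta subunit, at -0.09 (named after its value was seen). Complex II, which has no mitochondrially encoded subunit, had 2 of 4 genes higher and 1 lower: Sdhb at 0.19, Sdhd at 0.12 and the flavoprotein gene Sdha at -0.14. The call of Sdhd ended when replicate 2 or 3 of either group was left out and with the length and GC correction.

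Summed over the 75 nuclear genes, controls had 7467, 7338 and 7558 CPM and H2O2 libraries 7983, 7816 and 7944. The ratio of the mitochondrial mRNA total to this nuclear total was 0.845, 0.991 and 0.933 in controls and 0.804, 0.662 and 0.701 with H2O2. The groups did not overlap, but H2O2 replicate 1 and control replicate 1 were the nearest pair. Among the mitochondrial mRNAs in this ratio, 6 had at most 21 counts in any library, so its size is no measure of the proportion of the subunits.

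**Figure D5:**
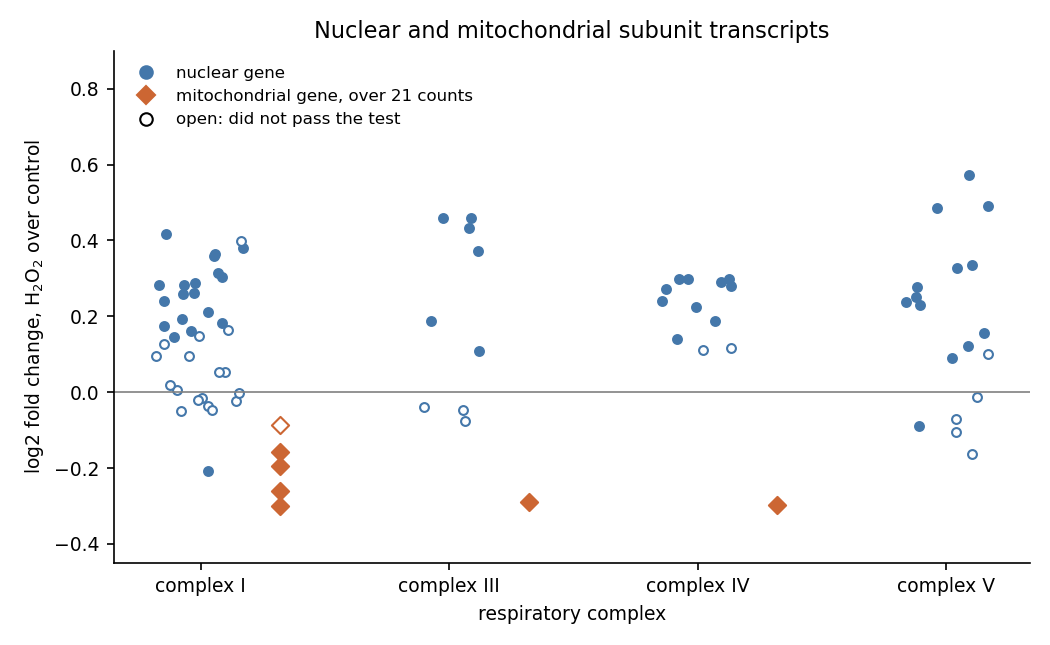
Log2 fold change (H2O2 over control) of the 75 nuclear genes (blue circles) and of the mitochondrial mRNAs with over 21 counts (orange diamonds) for each respiratory complex, filled where the gene passed the test. The mitochondrial mRNAs lie from -0.30 to -0.09, and most filled nuclear points lie above 0, with Ndufs1 and Atp5b as the filled points below it.

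The nuclear-encoded machinery that copies, transcribes and processes the mitochondrial genome had few calls. Of 61 tested genes for it, 1 rose and 7 fell, with a median log2 fold change of -0.06. The lower calls were near the background of 10.8% of tested genes called lower. The higher calls were under that of 9.70% called higher. Of 9 transcription genes, 1 rose: Mrpl12, a protein of the mitochondrial ribosome that also binds the mitochondrial RNA polymerase, at 0.24 (SE 0.0584, adjusted p = 3.8e-03). The RNA polymerase Polrmt (-0.03, adjusted p = 0.72) and the DNA-packaging factor Tfam (-0.09, adjusted p = 0.20), both named after their values were seen, did not pass.

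Of 19 genes for processing and modification, 3 fell: Elac2, which cuts the 3′ ends of tRNAs (-0.16, adjusted p = 6.5e-03), Trnt1, which adds their CCA ends (-0.20), and Trmt10c, a subunit of the mitochondrial RNase P (-0.20). Of 19 genes for stability, polyadenylation and decay, 3 fell: Lrpprc, which binds and stabilises mitochondrial mRNAs (-0.16, SE 0.0333, adjusted p = 8.8e-04), and the pentatricopeptide repeat genes Ptcd1 (-0.17) and Ptcd2 (-0.15). Of 14 genes for DNA replication and nucleotide supply, the pyrimidine nucleotide carrier Slc25a33 fell (-0.23). Of 9 regulators of mitochondrial biogenesis, which are not among the 61, Pprc1, a coactivator of the PGC-1 family, fell (-0.14, adjusted p = 3.7e-03). The calls of Trnt1, Trmt10c, Ptcd1, Ptcd2 and Slc25a33 did not hold in DESeq2's test or when H2O2 replicate 1 was left out. Leaving out control replicate 1 also ended those of Trnt1, Ptcd1, Ptcd2 and Slc25a33, control replicate 2 those of Trmt10c, Ptcd1, Ptcd2 and Slc25a33, and control replicate 3 those of Trmt10c and Ptcd1. Ptcd1 was not called without H2O2 replicate 2 or 3 either.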

How the data were processed

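The authors deposited 1 table per library of whole-number read counts per gene symbol. The submitters' processing notes list STAR 2.5.3, HTSeq, cutadapt, DESeq2 and bcl2fastq 2.17.1.14, and the build mm10. Annotation, strand setting, read length and treatment of overlapping genes are not given in the sources used here. HTSeq's summary classes were left out of library sizes. Of the reads counted, 5.18% ± 0.108 (controls) and 5.20% ± 0.385 (H2O2) had no feature and 3.21% ± 0.0475 and 3.26% ± 0.0639 were ambiguous (SD, n = 3). These totals limit counting precision, and replicates differed by more than sampling noise.

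From the deposited counts, filterByExpr kept 12924 genes, which were tested with edgeR 4.0.16 (limma 3.58.1, R 4.3.3) by the quasi-likelihood test with TMM factors, treatment as the only term and Benjamini-Hochberg adjustment. CPM are counts scaled with those factors. Each SE is the log2 fold change divided by the square root of F. Totals and ratios were compared by exact two-sided permutation tests. Windows and best copies (blastn) came from GENCODE M21 transcripts.

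The members and lists were chosen with earlier results of these data known. All members are accounted for, and from each pathway list the text names up to 3 called genes with the smallest p, and from each marker list the most abundant. The replicate numbers are not stated to pair libraries. Alternatives covered other scaling, DESeq2 1.42.0, limma-voom, filters on low counts, the replicate block, a per-library loess offset for length and GC content (lengths for 94.6% of tested genes), and leaving out each library. On data simulated for this comparison from the real means (12814 genes tested), edgeR called 32 of 49 genes changed 1.2-fold and 42 of 48 changed 1.5-fold, with 19 false calls.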

Additional observations from a re-analysis of the deposited data

How the results depend on the processing

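Both rRNAs, mt-Nd2, mt-Nd6 and mt-Cytb were called lower in all 17 alternative fits. mt-Co1 and mt-Nd4 were called in 16, mt-Nd5 in 14, mt-Nd1 in 5 and mt-Tp in 2. The number of mRNAs called lower was 6, and it was 3 by DESeq2's test, 7 with no filter on low counts and with the length and GC offset, and 5 to 8 when 1 library was left out. It was 8 without H2O2 replicate 1, where mt-Nd1 and mt-Co3 were added (mt-Co3 adjusted p = 0.044). No member was called higher in any fit. mt-Tp was called lower with no filter and with the replicate block and offset together, which made the count of tRNAs 1 in place of 0.

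The nuclear subunits called lower were 2, and 10 with the length and GC offset, alone or with the replicate block, and 1 to 3 when 1 library was left out; those called higher were then 40 to 46. The machinery genes called higher were 1 and became 2 with upper-quartile factors, DESeq2's size factors, library size alone, scaling without mitochondrial, ribosomal protein and ribosomal RNA genes, the stricter filter, the replicate block, and without control or H2O2 replicate 2. Those called lower were 7, then 2 by DESeq2's test, and 2 to 6 when 1 library was left out (2 without H2O2 replicate 1, 3 without control replicate 1 or 2). The cause was not tested. The log2 change of the rRNA share was -0.52, and -0.64 with mt-Rnr2 left out, that is for mt-Rnr1 alone.

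Without 1 library, the log2 change of the mRNA share ranged from -0.34 to -0.19, of the rRNA share from -0.61 to -0.46, of the tRNA share from -0.67 to -0.02 (the last without H2O2 replicate 3), of the rRNA to mRNA ratio from -0.34 to -0.19, and of the ratio of mt-Nd6 to the other mRNAs from -0.01 to 0.13. The count of rRNAs called lower was 2 in every fit.

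Deviations from the group means correlated at 0.020, 0.030 and -0.0018 between libraries with the same replicate number. Between libraries with different numbers the correlations ran from -0.029 to 0.0088. Values this small cannot show whether the numbers pair libraries. With the replicate block, 6 mRNAs and 2 rRNAs were called lower, and of the nuclear subunits 49 were called higher and 3 lower. No paired reading is drawn from it.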
